A study of Mus musculus with 6 samples.

Results

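The beaded filament, vimentin and lamin genes were examined in the embryonic lens with and without Gata3. The set has 7 members, chosen by gene symbol: Bfsp1, Bfsp2, Vim, Nes, Lmna, Lmnb1 and Lmnb2. All 7 were found among the 13024 genes of the count table, and all 7 passed the filter on low counts, at least 10 counts in at least 3 libraries. RNA was sequenced from E14.5 mouse lenses on a mixed C57BL/6 and FVB background. Gata3 CKO embryos carried 2 floxed Gata3 alleles (Gata3 f/f) and the Pax6-Cre transgene, whose enhancer and promoter act in the precursors of lens and cornea in the head ectoderm. Control embryos carried no Cre, so a Cre effect and loss of Gata3 cannot be told apart. Their genotype is stated in 3 ways in the sources (wild type, Gata3 f/f and Gata3 f/wt), and they are called control here. There were 3 pools in each group, and 10 lenses from 5 embryos went into each pool.

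Beaded filaments are cytoskeletal fibres found in lens fibre cells. They are assembled from 2 divergent intermediate filament proteins, filensin, encoded by Bfsp1, and phakinin or CP49, encoded by Bfsp2. Vimentin (Vim) forms conventional filaments in lens epithelium and young fibres, and nestin (Nes) joins vimentin filaments in progenitor cells. Lamins A and C, both from Lmna, and lamins B1 and B2 line the inner face of the nuclear envelope, and fibre cells lose their nuclei as they mature.

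Bfsp1 and Bfsp2 were lower in every CKO pool than in every control pool, whereas no lamin gene differed beyond the spread of its pools. Between the group means fitted by edgeR, Bfsp1 was 6.57-fold and Bfsp2 2.94-fold lower, and without control pool 2 these folds were 4.01 and 2.11. The lowest control pool was 3.20-fold above the highest CKO pool for Bfsp1 and 1.55-fold for Bfsp2. Vim and Nes had log2 fold changes of -0.15 and -0.16. No gene in the table, and so no member, passed an adjusted p of 0.05 in edgeR's quasi-likelihood test (0% of 12879 genes tested). At an unadjusted p under 0.05, 457 genes were counted (3.55%), among them 2 members, and 289 of these genes were lower (2.24%). Both members were lower, Bfsp1 and Bfsp2. DESeq2, run as an alternative, called 85 genes, of which 56 were lower (0.435%), again with both beaded filament genes. The limma voom test called 0, with 441 genes at an unadjusted p under 0.05. Values of the groups did not overlap for 1077 genes (8.36%), of which 604 were lower (4.69%), and for 3 members, Bfsp1, Bfsp2 and Nes, all lower in CKO. The median log2 fold change of all genes was 0.0019.

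Libraries held 15157230 to 18811104 counts. Levels are in CPM, a gene's counts after scaling all libraries to one size by the TMM method. Gata3 itself had 202, 386 and 156 counts in control pools 1, 2 and 3, but 910, 1064 and 894 counts in the libraries labelled CKO. One count per gene says nothing of single exons, so these counts cannot check the deletion of exon 4, and each direction below is that of the libraries labelled CKO. All 11 lens fibre markers were detected in all pools, and their summed level was 16180 to 47480 CPM in control and 14570 to 21340 CPM in CKO. Control pool 2 had the highest sum. Mesenchyme markers summed to 2190, 457 and 229 CPM in the control pools and 232, 3994 and 503 CPM in the CKO pools. Retina and neural progenitor markers summed to 959 to 2016 CPM in control and 1372 to 1931 CPM in CKO, so tissue around the lens was present in each pool. The 3 adult globin genes Hba-a2, Hbb-bt and Hbb-bs were listed at 0 in every library. Of the other blood cell markers, Hbb-y had 469, 1112 and 301 CPM in control and 241, 357 and 349 CPM in CKO. Alas2 had 57.6, 144.6 and 42.3 CPM in control and 32.4, 46.9 and 44.6 CPM in CKO. Blood cell RNA was thus present in each pool, with its highest sum in control pool 2 (1256 CPM). The pools were separate sets of embryos.

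The 250 bases upstream of the Bfsp1 start are shown because this gene had the largest difference of the set. The sequence is from the RefSeq promoter table for GRCm38.p6, chr2:143863174-143863423, reverse strand, written 5′ to 3′. The window was searched on both strands for the GATA factor letters AGATAA or its variant AGATAG and TGATAA or its variant TGATAG, for the Maf half-site TGCTGA, for the heat shock letters GAANNTTC or the inverted TTCNNGAA, and for the AP-1 letters TGANTCA. Capitals mark the matches.
Bfsp1: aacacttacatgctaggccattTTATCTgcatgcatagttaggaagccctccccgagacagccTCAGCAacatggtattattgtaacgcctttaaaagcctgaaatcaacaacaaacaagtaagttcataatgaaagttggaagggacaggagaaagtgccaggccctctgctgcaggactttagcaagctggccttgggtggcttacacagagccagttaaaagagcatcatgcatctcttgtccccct
It held 1 GATA match, TTATCT at bases -228 to -223, and 1 Maf match, TCAGCA at bases -187 to -182. Among 32851 RefSeq promoters of the same length, 26.5% held a GATA match and 16.1% a Maf match. The matches do not overlap and are descriptions of letters only. In all, 6 of the 7 members had an entry, in 8 windows. No match to the searched GATA factor letters was in the other 7 windows, those of Bfsp2, Lmna, Lmnb2, Nes and Vim. The shorter core GATA was not searched. The Bfsp2 window starts at an internal site (103449176) and not at the start of the full-length transcript (103480420), and it is not shown. Other windows also belong to sites inside the gene. These are both Lmna windows (88493312 and 88503352, in a gene that begins at 88509956) and the Lmnb2 window at 80906412 (gene begins at 80918245). That of Vim is at 13574311 (gene begins at 13573927). A lack of GATA matches there does not cover the other start sites of these genes.

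Lamins A, B1 and B2 differ from lamin C and the other members at their ends. Ends are shown because the lamin results turn on 3 genes and on 2 forms of 1 of them. The last 30 coding bases, stop codon included, were read 5′ to 3′ from the GENCODE M21 transcripts of GRCm38. Capitals mark a cysteine codon 4 codons before the stop, the position at which the CaaX motif of a lamin is farnesylated.
Lmna, lamin A transcript: cagagctcccagaacTGCagcatcatgtaa
Lmna, lamin C transcript: caccaccgtgtgagtggcagccgccgctga
Lmnb2: actacctcaaggggcTGCcgactgatgtga
Vim: acttctcagcatcacgatgaccttgaataa
The lamin A end lies at chr3:88482074-88482348 on the reverse strand, in 2 exon blocks, and the lamin C end at chr3:88483297-88483326. The Lmnb2 end lies at chr10:80902859-80902888, also on the reverse strand, and the Vim end at chr2:13582485-13582514 on the forward strand. The Lmnb1 transcript also has a cysteine codon there. Lamin C, Vim, Bfsp1, Bfsp2 and Nes have none. Lamin A (665 codons) and lamin C (574 codons) come from the same gene, and 1 count per gene does not separate them.

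Bfsp1, on the reverse strand of chromosome 2 (143826528 to 143863173 in GRCm38, 8 exon blocks), encodes filensin, the larger beaded filament protein. Its counts were 11290, 27604 and 11413 in control pools 1, 2 and 3, and 3074, 3267 and 2629 in the CKO pools. Scaled, these were 715, 1945 and 638 CPM in control and 199, 166 and 137 CPM in CKO. The lowest control pool was above the highest CKO pool by a wide margin, and control pool 2 stood far above the others. The mean level was 1099 ± 734 CPM (SD, n = 3) in control and 167 ± 31.3 CPM in CKO. On the log2 scale CKO minus control was -2.72 ± 0.47 (standard error), with a 95% interval of -3.83 to -1.60. Its unadjusted p in edgeR's quasi-likelihood test was 0.000832 and its Benjamini-Hochberg adjusted p 0.473. DESeq2 gave a log2 fold change of -2.71 with an adjusted p of 7.8e-04. The exact permutation test gave p = 0.1, the smallest that 3 pools against 3 allow. Without control pool 2, the log2 fold change was -2.00, with an edgeR adjusted p of 0.0560. In bulk lens RNA, fewer fibre cells and less Bfsp1 RNA in each fibre cell cannot be told apart.

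Bfsp2, on the reverse strand of chromosome 9 (103424924 to 103480420, 7 exon blocks), encodes the partner protein phakinin. Its counts were 8384, 13664 and 6524 in control and 3629, 4029 and 3700 in CKO. Its levels were 531, 963 and 364 CPM in control pools 1, 2 and 3, and 235, 205 and 192.5 CPM in the CKO pools. All control values were above all CKO values, and control pool 2 was again the highest. The means were 619.5 ± 309 CPM and 211 ± 22.0 CPM (SD, n = 3). CKO minus control came to -1.55 on the log2 scale, with a standard error of 0.34, a 95% interval of -2.38 to -0.73, an edgeR unadjusted p of 0.00318 and an adjusted p of 0.638. DESeq2 gave -1.55 with an adjusted p of 4.5e-04, and the exact permutation p was 0.1. Without control pool 2, the value was -1.08 (edgeR adjusted p = 0.195).

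Some features of Bfsp2 limit its value. FVB mice are known to carry a deletion in Bfsp2, the strain label here is a mix with FVB, and the Bfsp2 allele in each pool is not given in the sources used here. Whether allele differences took part in the result was not tested. The antisense gene 5830418P13Rik shares 201 exon bases with Bfsp2. The libraries were stranded, but the strand setting of the counting is not given in the sources used here, and if strand was not used, reads of the 2 genes cannot be told apart.

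**Figure D1:**
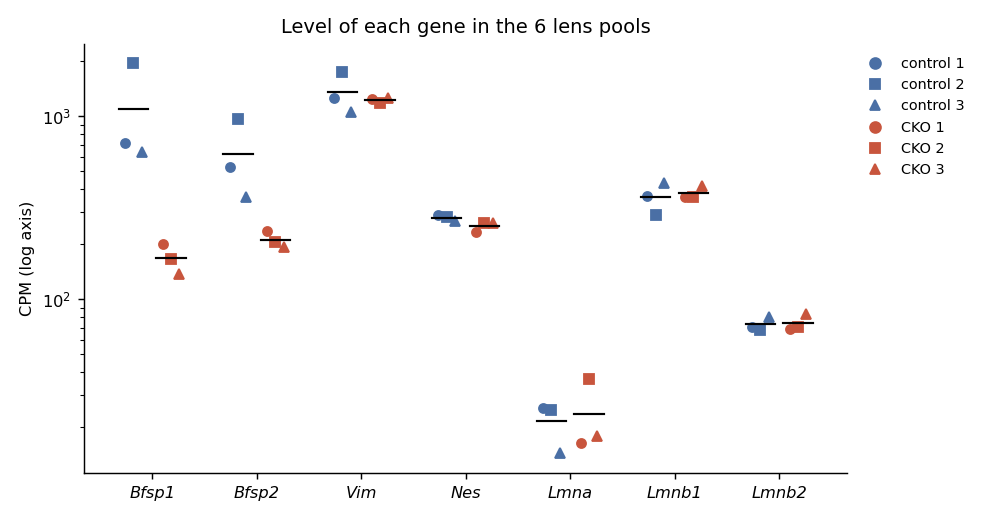
CPM (log axis) of the 7 genes in each pool, with control in blue and CKO in red, a symbol for each pool number and a black line at each group mean. Bfsp1 (137 to 199 CPM in CKO, 638 to 1945 in control) and Bfsp2 (192.5 to 235 against 364 to 963) separate the groups widely, Nes (232 to 261 against 269 to 288) separates them narrowly, and the other 4 genes overlap.

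Vim, on the forward strand of chromosome 2 (13573927 to 13582826), encodes the main conventional intermediate filament protein of the young lens. Its levels were 1267, 1743 and 1059 CPM in control and 1249, 1177 and 1252 CPM in CKO. The CKO pools lay close together and inside the range of the control pools, of which pool 2 was the highest. The log2 value was -0.15 ± 0.18 (standard error), with a 95% interval of -0.58 to 0.29 and an unadjusted edgeR p of 0.456. Without control pool 2, it was 0.0858, so the direction rested on that library.

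Nes, on the forward strand of chromosome 3 (87971078 to 87980451), encodes nestin, which pairs with vimentin in progenitor cells. Its levels were 288, 282 and 269 CPM in control and 232, 260 and 261 CPM in CKO. The groups did not overlap, but the lowest control pool and the highest CKO pool were separated by only a few CPM. The means were 279.6 ± 9.77 CPM and 251 ± 16.6 CPM (SD, n = 3). The log2 value was -0.16 ± 0.0786 (standard error), with a 95% interval of -0.34 to 0.03. The edgeR unadjusted p was 0.0883, the adjusted p 0.9998 and the exact permutation p 0.1. Nes kept a negative log2 fold change with each pool left out, between -0.18 and -0.10. Retina and neural progenitor markers, from a tissue that also makes nestin, did not separate the groups, and their part in the Nes level was not tested.

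**Figure D2:**
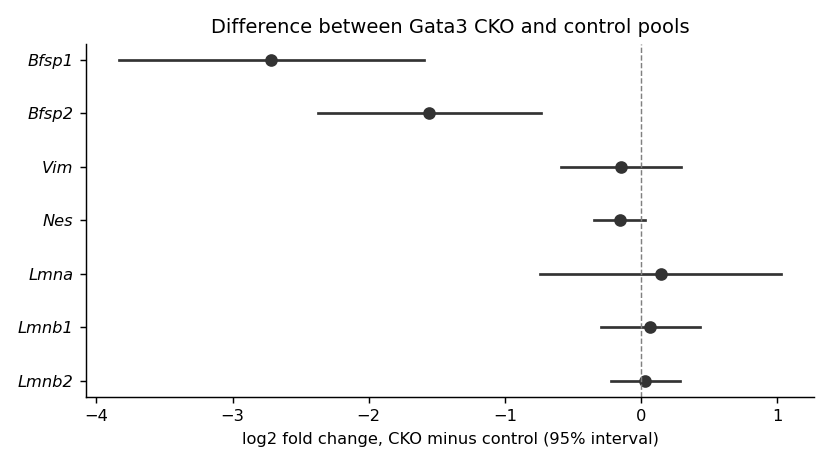
Log2 fold change of CKO minus control (points) for the 7 genes, with a 95% interval derived from edgeR's test (lines). The dashed line marks no difference. Bfsp1 (-3.83 to -1.60) and Bfsp2 (-2.38 to -0.73) lie below 0, and the other intervals include 0, the widest of them that of Lmna (-0.74 to 1.03).

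The lamin genes overlapped between the groups, and none passed at an unadjusted p under 0.05 in edgeR. Lmnb1, on chromosome 18 (56707813 to 56753424), encodes lamin B1, a constitutive lamin of most nuclei. It had 366.5, 288 and 432 CPM in control and 361, 362 and 416.5 CPM in CKO. Control pool 2 was the lowest and control pool 3 the highest, and the CKO pools lay between them. Its log2 value was 0.07 ± 0.15 (standard error), with an interval of -0.30 to 0.43. Lmnb2, on chromosome 10 (80901203 to 80918245), encodes lamin B2. It had 70.7, 67.7 and 80.1 CPM in control and 69.0, 70.9 and 83.2 CPM in CKO. The 2 groups lay almost on top of each other. Its log2 value was 0.03 ± 0.11 (standard error), with an interval of -0.22 to 0.28, the narrowest interval of the 3 lamin genes.

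Lmna, on chromosome 3 (88480147 to 88509956), encodes lamins A and C, which rise in many tissues as cells differentiate. It was the lowest of the 7 genes, with 25.3, 24.8 and 14.4 CPM in control and 16.3, 36.8 and 17.9 CPM in CKO. The groups overlapped, and CKO pool 2 stood alone at the top. The log2 value was 0.14 ± 0.37 (standard error), with an interval of -0.74 to 1.03. Without CKO pool 2, it was -0.32, and without control pool 3, -0.0784. All 8 mesenchyme markers were also highest in CKO pool 2, with Col1a2 at 1230 CPM there against 65.4 to 731 CPM in the other pools. The 5 surface ectoderm and cornea markers also had their highest sum there, at 89.9, 82.2 and 35.9 CPM in control and 51.4, 140.2 and 66.0 CPM in CKO. Of these markers, Krt14 and Epcam were not highest there. Control pool 2 had less mesenchyme marker RNA than CKO pool 3 but more Lmna and more surface ectoderm marker RNA. The part of either tissue in the Lmna level was not tested.

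**Figure D3:**
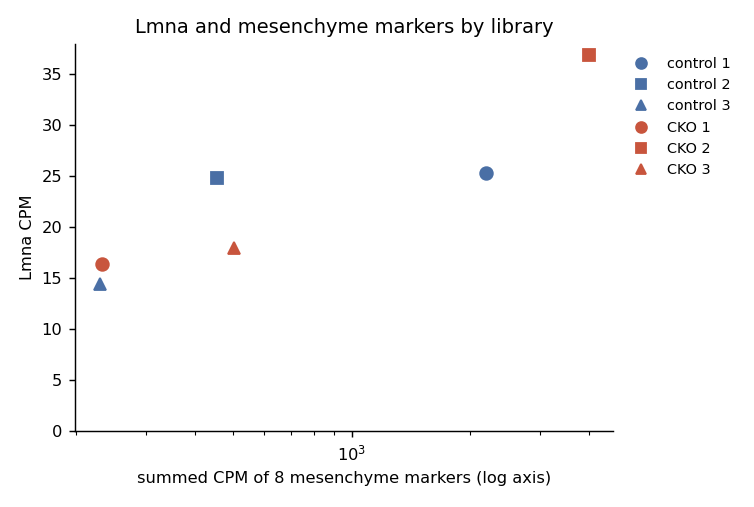
Lmna level (CPM, vertical axis from 0) against the summed CPM of 8 mesenchyme markers (horizontal log axis), one point for each pool. CKO pool 2 is highest on both axes (36.8 CPM and 3994 CPM), while control pool 3 (14.4 and 229) and CKO pool 1 (16.3 and 232) are lowest on both.

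Ratios between the lamin genes overlapped between the groups. Lmnb1 counts were 5.19, 4.26 and 5.39 times those of Lmnb2 in control and 5.23, 5.10 and 5.01 times in CKO, a log2 difference of 0.06 (exact permutation p = 0.9). The ratio of Lmna to Lmnb2 was 0.358, 0.367 and 0.179 in control and 0.237, 0.519 and 0.215 in CKO, a log2 difference of 0.06 (exact permutation p = 1.0). That of Lmna to Lmnb1 differed by less than 0.001 on the log2 scale. Together the 3 genes took 0.0445 ± 0.0107% of counts in control and 0.0496 ± 0.0045% in CKO (SD, n = 3).

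The ratio of the beaded filament genes did not overlap. Bfsp1 had 1.35, 2.02 and 1.75 counts for each Bfsp2 count in control pools 1, 2 and 3, and 0.847, 0.811 and 0.711 in the CKO pools. Bfsp1 counts thus outnumbered those of Bfsp2 in every control pool and in no CKO pool. This order of counts depends on transcript length. Per kb of exon, Bfsp1 was below Bfsp2 in control pool 1 (299 against 320 CPM per kb). The log2 difference of the ratio was -1.10, between -1.26 and -0.96 with any pool left out. The exact permutation p was 0.1, the smallest possible, and 0.233 adjusted over the 7 ratios tested. A ratio within a library does not depend on how libraries are scaled.

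Against vimentin, both genes were also lower. There were 0.565, 1.12 and 0.602 Bfsp1 counts for each Vim count in control and 0.160, 0.141 and 0.109 in CKO. For Bfsp2 the ratios were 0.419, 0.552 and 0.344 in control and 0.188, 0.174 and 0.154 in CKO. Neither ratio overlapped between the groups. The log2 differences were -2.42 and -1.33, each with an exact permutation p of 0.1 (adjusted over the 7 ratios, 0.233). The ratio of Nes to Vim overlapped, with a log2 difference of -0.04 (exact permutation p = 0.8).

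Both genes were then set against 11 other lens fibre markers, a comparison chosen after seeing the data. The measure is log2 CPM minus the mean log2 CPM of those markers in the same library. For Bfsp1 it was 1.47, 1.85 and 1.85 in control and 0.461, 0.677 and 0.440 in CKO. The groups did not overlap, and Bfsp1 was lower against the fibre markers by a log2 difference of -1.20, between -1.32 and -1.13 with any pool left out (exact permutation p = 0.1). For Bfsp2 it was 1.04, 0.831 and 1.04 in control and 0.700, 0.980 and 0.932 in CKO. Here the groups overlapped, with a difference of -0.10 (exact permutation p = 0.5), a value that depended on the markers used. All 11 fibre markers had a negative log2 fold change, with a median of -0.90. Dnase2b, the DNase of fibre cell denucleation, had the most negative value at -4.64, followed by Birc7 at -3.67 and Lenep at -2.70. Without these 3 genes, also left out after seeing the data and so given with no test, the difference from the mean of the other 8 markers was -2.00 for Bfsp1 and -0.90 for Bfsp2. Leaving out the markers of most negative value makes both differences more negative by construction, so no conclusion is drawn from the move. Bfsp2 then lay at -0.32, -0.52 and -0.36 in control and -1.40, -1.30 and -1.21 in CKO, and the groups did not overlap. The high level of Bfsp1 and Bfsp2 in control pool 2 went with the highest fibre marker sum. That pool also had the highest lens epithelium marker sum, at 1975, 2774 and 1476 CPM in control and 2070, 2008 and 1883 CPM in CKO. Its blood cell (1256 CPM) and macrophage (68.9 CPM) marker sums were the highest too. The part of tissue content in the differences was examined only by this comparison and by leaving that pool out. Neither tells it apart from the RNA level in each cell.

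**Figure D4:**
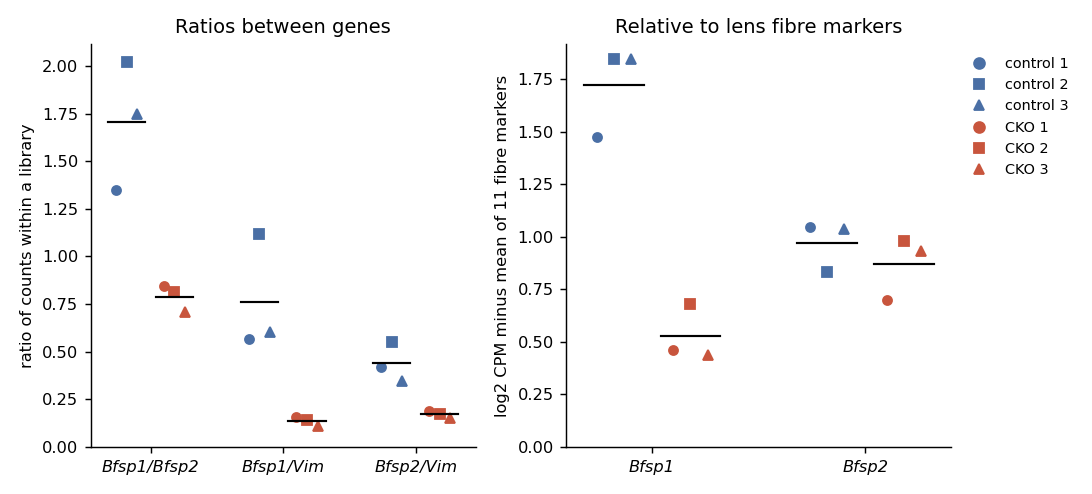
Left, count ratios within each library for Bfsp1 to Bfsp2, Bfsp1 to Vim and Bfsp2 to Vim; right, log2 CPM of Bfsp1 and Bfsp2 minus the mean of 11 lens fibre markers. Points are pools, black lines are group means and both axes start at 0. The groups separate in all 3 ratios and for Bfsp1 (0.440 to 0.677 in CKO, 1.47 to 1.85 in control), while those of Bfsp2 on the right overlap with these 11 markers. They do not overlap with the 8 other than Dnase2b, Birc7 and Lenep (not drawn), a choice that makes the difference more negative by construction.

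Levels can be set between genes only per length, so CPM was divided by the exon length in kb. In control, the order was Vim (612 ± 158 CPM per kb, SD, n = 3), Bfsp1 (460.0 ± 307), Bfsp2 (373 ± 186), Lmnb1 (127 ± 25.3), Nes (45.7 ± 1.60), Lmnb2 (18.5 ± 1.65) and Lmna (6.06 ± 1.74). The values of Vim and Bfsp1, and of Bfsp1 and Bfsp2, overlapped between pools, and the other neighbours did not. In CKO, the order was Vim (553 ± 19.1), Lmnb1 (134 ± 11.2), Bfsp2 (127 ± 13.2), Bfsp1 (70.1 ± 13.1), Nes (41.0 ± 2.71), Lmnb2 (18.9 ± 1.96) and Lmna (6.67 ± 3.21). Only the neighbours Lmnb1 and Bfsp2 overlapped. Bfsp1 thus stood above lamin B1 in every control pool and below it in every CKO pool.

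Among 12283 genes with a length, Bfsp1 held rank 43 by mean level in control and rank 620 in CKO. In single pools it was at rank 67, 29 and 74 in control and 449, 609 and 875 in CKO, so the rank of the control mean was carried by pool 2. Bfsp2 moved from rank 55 to rank 244, with single pools at 63, 40 and 93 in control and 208, 257 and 294 in CKO. Vim was at rank 34 and 32, Lmnb1 at 255 and 230, Nes at 1217 and 1391, Lmnb2 at 3769 and 3629, and Lmna at 8223 and 7903. Bfsp1 and Bfsp2 together took 0.124, 0.253 and 0.103% of counts in the control pools and 0.0442, 0.0388 and 0.0346% in the CKO pools.

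**Figure D5:**
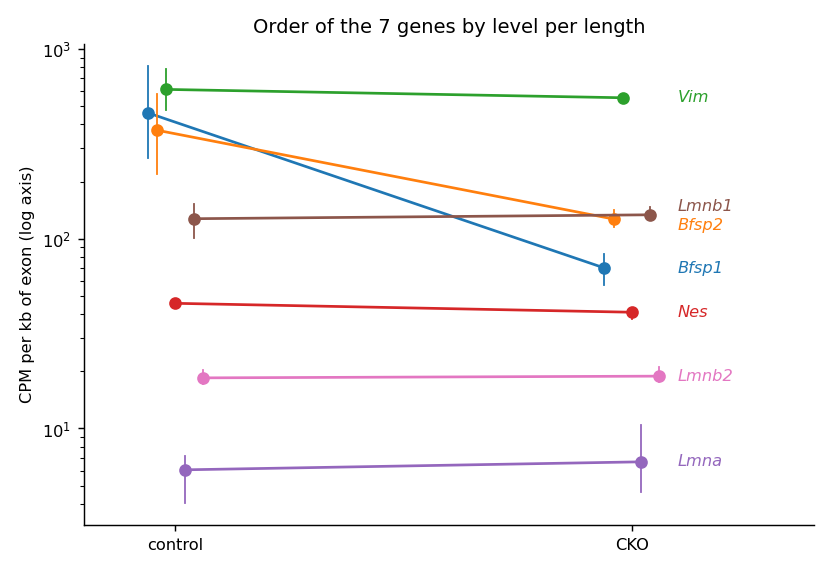
Mean CPM per kb of exon (points, log axis) in control and CKO, with thin lines from the lowest to the highest pool. Bfsp1 (460.0 to 70.1) and Bfsp2 (373 to 127) cross below the mean of Lmnb1 (127 to 134), the Bfsp2 pools overlapping those of Lmnb1 in CKO, and the other 5 genes keep their order.

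The control pools differed more among themselves in the beaded filament genes than in most genes. The SD of log2 CPM over the control pools was 0.885 for Bfsp1 and 0.707 for Bfsp2, above 97.0% and 93.1% of genes, and 0.187 for the median gene. The highest control pool was 3.05-fold above the lowest for Bfsp1 and 2.64-fold for Bfsp2. In CKO these ratios were 1.46 and 1.22. Nes was among the steadiest, with an SD of 0.0507 in control. In CKO, Lmna was the most variable member, with an SD of 0.640, above 96.5% of genes.

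Genes whose pattern over the 6 libraries was most like that of each member were found by the root mean square difference of centred log2 CPM. Nearest to Bfsp1 were Lenep (0.129), a lens epithelial protein gene high in fibres, Crygb (0.181), a gamma crystallin, and Alox12 (0.238), a lipoxygenase. Bfsp2 was 35th in that list, at 0.579, and the median gene was at 1.39. Nearest to Bfsp2 were Pla2g16 (0.0831), a phospholipase, Rnf113a1 (0.0939) and Optn (0.103), an autophagy receptor. In the list for Bfsp2, Bfsp1 was 383rd at the same distance of 0.579, where the median gene was at 0.849. Nearest to Vim were Osgin2, Ghitm and Spryd7 (0.0334 to 0.0369), and nearest to Nes Cacna1d, Nus1 and Smim11 (0.0233 to 0.0303). Nearest to Lmna were Sec24d, Calml3 and Slc2a10 (0.0763 to 0.108). Stil, Zdbf2 and Zbtb14 were nearest to Lmnb1 (0.0215 to 0.0268), and Tspyl1, Fntb and H1f0 to Lmnb2 (0.0248 to 0.0263). Fntb encodes a subunit of the farnesyltransferase that acts on lamins. These are descriptions over 6 libraries of 2 groups.

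Other intermediate filament genes, a chosen list and not the whole family, had no shared direction. Of 18 genes listed, 13 were in the table, of which 7 had a positive and 6 a negative log2 fold change, with a median of 0.18 against 0.0019 for all genes tested. Without CKO pool 2 the median was -0.27. The keratin genes Krt5, Krt7, Krt8, Krt15, Krt18 and Krt19 were highest in that pool. Krt14 was not, with 9.16 CPM in control pool 2 and 8.04 CPM in CKO pool 2. The sum of the surface ectoderm and cornea markers was also highest there, with Krt5 at 66.0 and Krt15 at 44.7 CPM. Of these markers, Krt14 and Epcam (12.8 CPM in control pool 1, 11.2 CPM in CKO pool 2) were not highest there. The part of that tissue was not tested. None of the 13 genes passed the adjusted threshold of edgeR's test. Values of the groups did not overlap for 2 of the 13, Gfap and Synm, against 8.36% of all genes tested. An unadjusted p under 0.05 in edgeR was found for 1 of the 13, against 3.55% of all genes tested. This was Gfap, the glial filament gene, with 4.37, 9.94 and 4.64 CPM in control and 2.53, 2.65 and 2.86 CPM in CKO. Its groups did not overlap, at -1.23 ± 0.36 on the log2 scale (standard error), with an unadjusted edgeR p of 0.0120. Synm, whose product synemin binds vimentin and is the nearest in size of difference, had 175, 385 and 166 CPM in control and 158, 142 and 135 CPM in CKO. The log2 value was -0.74 ± 0.33 (standard error), with an unadjusted edgeR p of 0.0620, and -0.22 at the nearest to 0 with a pool left out. Control pool 2 was the highest for Gfap and Synm, as it was for Bfsp1 and Bfsp2. The neuronal filament genes Ina, Nefl and Nefm were lowest in control pool 2, where retina and neural progenitor markers were also lowest, and their part was not tested.

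Filament linkers, which tie intermediate filaments to junctions and other cytoskeleton, were in the table for 10 of 12 genes. Of these, 4 had a positive and 6 a negative log2 fold change (median -0.10), and none passed in edgeR. Values of the groups did not overlap for 3 of the 10, against 8.36% of all genes tested. Pkp2, a plakophilin of desmosomes, had an unadjusted p of 0.0156 in edgeR, with 39.2, 62.2 and 35.8 CPM in control and 30.5, 22.5 and 27.9 CPM in CKO, and did not overlap. The log2 value was -0.76 ± 0.23 (standard error). Ppl, encoding periplakin, a known vimentin and beaded filament binding protein of the lens, had 10.96, 12.97 and 2.74 CPM in control and 15.9, 23.7 and 13.01 CPM in CKO. The log2 value was 0.99 ± 0.54 (standard error), with an unadjusted edgeR p of 0.113, the only positive one among the non-overlapping linkers.

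Partners of the lamins had log2 fold changes near 0. Of 22 inner nuclear membrane and lamin partner genes, 21 were tested, with 12 positive and 9 negative log2 fold changes, a median of 0.03 and a range from -0.26 (Syne4, a nesprin) to 0.17 (Emd, encoding emerin). By edgeR, 0 had an unadjusted p under 0.05. Groups did not overlap for 1 of the 21, Tmem43, against 8.36% of all genes tested. Lbr, the lamin B receptor, had 125, 104 and 139.5 CPM in control and 134, 126 and 132 CPM in CKO.

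Genes that process the lamin tail were all tested, 7 of 7, with 4 positive and 3 negative values and a median log2 fold change of 0.02. By edgeR, 0 had an unadjusted p under 0.05. The largest value was that of Fnta, the other farnesyltransferase subunit, at -0.21 (82.2 CPM in control, 71.2 in CKO). Next was Narf, a prelamin A binding protein, at -0.14 (129 and 117 CPM). Without control pool 2, Fnta was at -0.06 and Narf at -0.13. Narf was the 1 gene of these 7 whose groups did not overlap, against 8.36% of all genes tested. Zmpste24, the protease that matures prelamin A, had a mean of 58.7 CPM in control and 61.7 CPM in CKO.

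A further 9 genes, for the disassembly or reassembly of the lamina in mitosis or cell death, are called disassembly genes for short. Of these, 5 had positive and 4 negative values (median 0.02). In edgeR 0 had an unadjusted p under 0.05, and in all 9 the groups overlapped. Prkca, a protein kinase C gene, had the largest at -0.54 (54.1 CPM in control, 37.2 in CKO), followed by Ccnb1, cyclin B1, at 0.11. Without control pool 2, Prkca was at -0.16 and Ccnb1 at -0.0029. Cdk1, the mitotic kinase that phosphorylates lamins, was at -0.02, with 98.1 CPM in control and 96.5 CPM in CKO. The 8 cell division markers summed to 1836 to 2540 CPM in control and 2142 to 2349 CPM in CKO. Control pool 2, lowest in that sum, was also lowest for Lmnb1 and Lmnb2, and the part of dividing cells in these levels was not tested.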

How the data were processed

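Poly(A) RNA was sequenced from 6 pools of E14.5 lenses, 3 Gata3 CKO and 3 control. The authors aligned paired-end reads to mm10 with TopHat2 2.0.13, counted fragments per RefSeq gene with HTSeq 0.6.1 and deposited raw counts for genes above an FPKM minimum in either group. The overlap and strand options are not given in the sources used here. CKO pools carry the numbers of their titles; descriptions number them differently.

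Counts were normalized by TMM and tested with edgeR 4.0.16 (robust quasi-likelihood fit, R 4.3.3) with Benjamini-Hochberg adjustment over 12879 genes, those that reached 10 counts in 3 or more libraries. Depth was 15157230 to 18811104 counts, so the spread between pools limits precision. Ratios were compared by exact two-sided permutation tests. Positions and exon lengths came from GENCODE M21 (GRCm38, the assembly of mm10). Deviations of same-numbered pools correlated at -0.487, 0.0899 and 0.442, so only 1 of 3 pairs deviated together and numbers were not used as pairs.

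Members, gene lists and markers were chosen with earlier results of these data known. Named genes are the members, Gata3, genes of each list with an unadjusted p under 0.05 or the 2 largest log2 fold changes, markers by level, and the 3 genes nearest in pattern to each member. Synm, Ina, Nefl, Nefm, Tmem43, Lbr, Zmpste24 and Cdk1 were chosen after their values were seen. Alternatives were DESeq2 1.42.0, limma 3.58.1 voom, other normalizations and filters, a non-robust fit, a replicate block, marker covariates, and each pool left out. Krt5, Krt7, Krt8, Krt14, Krt15, Krt18, Krt19 and Epcam were likewise named after their values were seen. The comparison with fibre markers, with and without 3 of them, was added after seeing the data.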

Additional observations from a re-analysis of the deposited data

How the results depend on the processing

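Bfsp1 and Bfsp2 kept a negative log2 fold change under each of the alternatives run, and their call depended on the test. Over all results, 185 of 217 alternative values kept the direction and call, or moved by less than the replicate spread. The 185 include values relative to the fibre markers, which kept the direction but had no call to compare. Among them Bfsp2 was at -0.10 against all 11 markers, with overlapping groups, where its main value was -1.55. Genes past an adjusted p of 0.05 numbered 0 in edgeR, 85 in DESeq2, 1 with library size only, 454 with mesenchyme and retina markers as covariates, and 0 to 1 with a pool left out (1 without control 3). Bfsp1 passed in DESeq2 (-2.71) and with the covariates (-2.23), and so did Bfsp2 (-1.55 and -1.22). The 2 covariates leave few residual degrees of freedom. Under the covariates Lmnb1 was at -0.0047 and Lmnb2 at -0.0041. With a pool left out, the log2 fold change ranged from -0.30 to 0.0858 for Vim, -0.32 to 0.35 for Lmna, -0.0604 to 0.21 for Lmnb1 and -0.0579 to 0.105 for Lmnb2. The log2 ratio difference ranged from -0.40 to 0.28 for Lmna to Lmnb1, -0.34 to 0.29 for Lmna to Lmnb2, -0.0487 to 0.12 for Lmnb1 to Lmnb2 and -0.23 to 0.0930 for Nes to Vim. List medians ranged from -0.27 to 0.32 for other intermediate filament genes (lowest without CKO 2), -0.24 to 0.17 for linkers (highest without control 2), -0.0122 to 0.0436 for lamin partners and -0.0649 to 0.0809 for disassembly genes. With library size only, the median of all genes was 0.10, and those of lamin partners, processing and disassembly genes were 0.12, 0.125 and 0.11. Leaving out the TMM factors shifts all genes together by construction. The cause of the other moves was not tested. The replicate block gave 0 calls (516 at an unadjusted p under 0.05, against 457), with Bfsp1 at -2.53 and Bfsp2 at -1.44, and changed no other call; not every pool correlated best with its own number. Without control 2, unadjusted calls split into 489 higher and 317 lower, against 168 and 289 with all pools. Low counts did not limit any member, the lowest being 252 counts for Lmna.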
